A study of Mus musculus with 7 samples.

Results

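The nuclear-encoded genes of oxidative phosphorylation were taken as the protein-coding mouse genes whose symbols begin with Nduf followed by a subunit letter and number (complex I), equal Sdha to Sdhd (complex II), begin with Uqcr (complex III), begin with Cox and a number from 4 to 8 (complex IV) or begin with Atp5 (complex V, the ATP synthase). Of 55335 gene identifiers in the count files, 85 met this rule, of which 37 belonged to complex I, 4 to complex II, 8 to complex III, 18 to complex IV and 18 to complex V. The rule used names only and no measured value. It took in Atp5s and Cox7a2l, which are not classical subunits, and it missed Cyc1 of complex III and Ndufab1 of complex I, whose names differ. Atp5o appears under a pair of identifiers, of which the second held 0 counts in every sample.

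Oxidative phosphorylation is the step at which cells turn the energy of nutrients into ATP in the inner mitochondrial membrane. Complexes I and II pass electrons to ubiquinone, complex III hands them on through cytochrome c to complex IV, which reduces oxygen, and the proton gradient built on the way drives complex V. Most subunits are encoded in the nucleus and imported, and a small set is encoded by mitochondrial DNA, except that complex II is nuclear throughout. Neural stem cells are known to draw strongly on glycolysis and to lean more on oxidative phosphorylation as they differentiate.

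Nanopore direct-cDNA libraries of polyadenylated RNA from 7 samples of cultured FVB/N mouse neural stem cells were compared. Of these, 4 were wild-type (WT) and 3 carried the null allele labelled Smchd1MommeD1, called Smchd1-null. Smchd1 encodes a chromatin protein that keeps the inactive X chromosome and certain gene clusters silent. All cells were expanded in medium with EGF and bFGF. The age and number of the animals behind the samples are not given in the sources used here. The labels also do not say whether the samples are separate cultures. P-values thus measure the spread between these samples, which may be technical in part. WT replicate 2 and Smchd1-null replicates 1 and 2 were sequenced in batch 1 with one cDNA kit (DCS108), batch 2, made with its successor (DCS109), held Smchd1-null replicate 3 together with WT replicates 3 and 4, and WT replicate 1 was run in both, its counts being summed. Kit, flow cell and the samples that happened to be in a batch cannot be told apart.

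Between 2741820 and 7736498 reads per sample were assigned to genes. Smchd1 itself was read at 55.7 to 74.7 CPM, the counts scaled to a common library size, in WT and at 12.8 to 18.4 in Smchd1-null samples, and the groups did not overlap. Summed over 8 markers of neural stem cells, the level ran from 8285 to 13392 CPM, whereas the markers of microglia, endothelium, and fibroblasts and pericytes summed to at most 3.94 CPM in any sample. Markers of neurons summed to 360 to 419 CPM and of the oligodendrocyte lineage to 725 to 1003 CPM, and those of astrocytes to 28.6 to 37.9 CPM except for 113 CPM in WT replicate 4, the WT sample with the lowest quality weight in the fit (0.447). Their part in the results was not tested, and in bulk RNA fewer cells of a type and less RNA per cell cannot be told apart. CPM are scaled here by TMM factors (trimmed mean of M-values), which correct for composition.

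Before the levels, a property of these transcripts has to be shown, because it bears on how a member's count is read. Many short subunit genes have processed pseudogenes, copies of the spliced mRNA set back into the genome. For 50 of the 85 members a search of the annotated pseudogene transcripts found 140 copies whose best protein-coding match was the member. The authors counted primary alignments only, so that a read fitting a gene and its copy alike was credited to just one of them. The coding sequence of Cox7c, a small subunit of complex IV, is shown because its copy Gm12338 (GRCm38, chr11:75599763-75599954, minus strand, against the gene at chr13:86044816-86046904) matched it at all 192 bases and carried more reads than the gene. No capitals are used, since no base differed.
Cox7c and Gm12338: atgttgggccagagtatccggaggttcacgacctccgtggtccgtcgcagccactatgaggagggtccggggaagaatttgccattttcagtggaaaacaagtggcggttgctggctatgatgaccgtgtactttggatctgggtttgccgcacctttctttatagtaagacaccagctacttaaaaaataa

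For Ndufs5, an accessory subunit of complex I, the copy held the largest share of the reads summed over gene and copy. The pair is shown to make plain how little separates them. The copy, BC002163 (chr16:42955631-42955949, plus strand, against the gene at chr4:123712710-123718202), aligned over 319 bases with 2 differences, T81C and A105G, where positions are counted from 1 at the first base of the start codon, the gene's base stands first and the copy's base last. The first 300 bases follow, with the differing bases in capitals.
Ndufs5: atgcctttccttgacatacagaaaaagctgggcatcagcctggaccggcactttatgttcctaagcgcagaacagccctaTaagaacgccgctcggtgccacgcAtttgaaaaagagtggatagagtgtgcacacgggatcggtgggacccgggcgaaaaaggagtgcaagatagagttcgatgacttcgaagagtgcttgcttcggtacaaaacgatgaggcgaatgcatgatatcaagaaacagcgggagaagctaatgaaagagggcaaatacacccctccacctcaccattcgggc
BC002163: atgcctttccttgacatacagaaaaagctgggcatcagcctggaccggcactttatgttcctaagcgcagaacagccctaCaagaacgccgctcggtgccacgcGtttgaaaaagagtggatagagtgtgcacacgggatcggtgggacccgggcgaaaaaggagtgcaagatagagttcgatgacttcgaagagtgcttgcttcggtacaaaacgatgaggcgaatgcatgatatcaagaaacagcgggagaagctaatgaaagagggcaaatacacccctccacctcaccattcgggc

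Over the 7 samples, 1191660 reads were assigned to the members and 193607 to their copies. The copies' share of this sum ran from 12.9% to 14.9% per sample. Of the copies, 22 held more than 1000 reads and 4 held none. Ndufs5 had a mean of 17.5 CPM, and with BC002163 the sum was 376 CPM, with 617 reads on the gene and 11797 on the copy over the 7 samples. Whether reads assigned to a copy came from the gene or from a transcript of the copy was not tested.

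Another 7 members had more reads on copies than on the gene. The share on copies was 93.8% for Atp5l, 92.5% for Atp5g2 and 86.9% for Atp5o, which are subunits g, c and the stalk subunit OSCP of the ATP synthase. It was 71.2% for Cox7c, 56.8% for Uqcrb, 56.3% for Ndufa12 and 52.6% for Atp5h. The largest copy, Gm12338, had a mean of 1623 CPM (1336 to 1819 over the samples) against 688 CPM for Cox7c itself. Gm10221 was identical to Atp5l over 309 bases and Gm10231 to Atp5g2 over 441 bases.

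**Figure D1:**
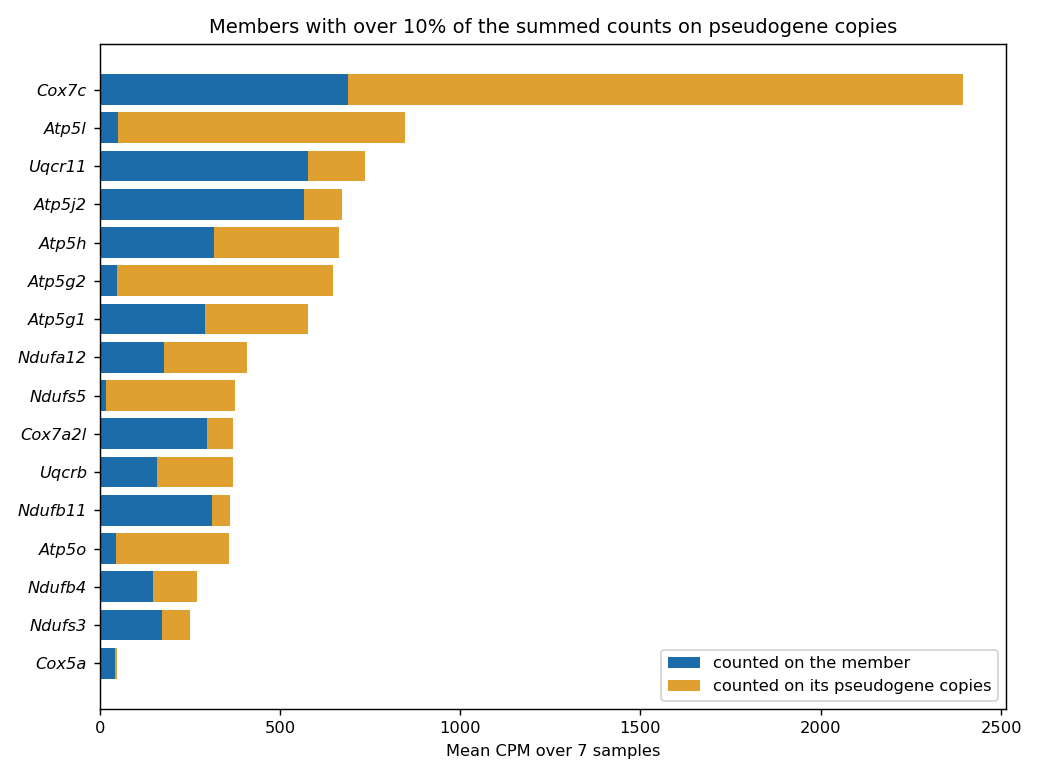
Mean CPM over 7 samples (x axis) counted on the member (blue) and on all its pseudogene copies (orange), for the 16 members with over 10% of the summed reads on copies. Cox7c is the longest bar, at 2395 CPM in all, and in Ndufs5, Atp5l, Atp5g2 and Atp5o the part counted on the member is small beside the part on copies.

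A second property bears on low counts. By default featureCounts assigns no read that overlaps exons of more than one gene, and the sources used here do not state another setting or the strand setting. Of the 79 members with enough reads for testing, 15 had a mean under 100 CPM. Of these 15, 11 shared exon bases with another gene and 4 had most reads on copies, with 3 members in neither class. Of the 64 members at or above 100 CPM, 16 shared exon bases and 4 had most reads on copies, while 45 were in neither class. Any shared base was counted, and most overlaps were small. The median share of exon bases overlapped was 4.48% over the 15 and 0% over the 64. Whether the overlap or the copies set the low counts was not tested. Uqcrc2, a core protein of complex III, was read at a mean of 13.1 CPM, with 19.8% of its exon bases overlapped by Pdzd9 on the other strand, whereas its partner core protein Uqcrc1, with no overlap, was at 391 CPM. Ndufb6 had 39% of its exon bases overlapped and a mean of 7.23 CPM, but Ndufa13 had 30% overlapped and stood at 560 CPM.

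Levels are compared between genes as CPM per kb of annotated exon length. Long-read libraries are not fragmented, and the paper found gene length only weakly associated with expression. Division by length thus favours short genes, and the orders below hold on this scale only. Members were short, with a median length of 1587 bases against 4160 bases for all genes tested, and 72 of the 79 tested members were shorter than that median. On the CPM per kb scale Cox8a, a small structural subunit of complex IV, was highest, with a level of 3090 ± 265 (SD, n = 7). Cox6a1 (1800 ± 366) and Uqcr10 (1589 ± 404), a small subunit of complex III, came next in CPM per kb, then Cox6b1 (1428 ± 191). These last 3 levels lay within 1 SD of their neighbours, whereas that of Cox8a did not.

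Within complex I the highest levels in CPM per kb were those of the accessory subunits Ndufc2 (941 ± 167), Ndufa4 (924 ± 143), a protein also assigned to complex IV, and Ndufa2 (863 ± 92.4), which did not differ beyond their spread. The lowest tested member of complex I on this scale was Ndufb2, with 6.55 ± 1.59 CPM per kb. In CPM, Ndufb2 (mean 36.9) was above Ndufs5 (17.5) and Ndufb6 (7.23). In complex II the iron-sulphur and membrane-anchor subunits Sdhd (287 ± 42.5), Sdhb (157 ± 18.9) and Sdhc (154 ± 30.1) lay above the flavoprotein Sdha (60.5 ± 11.9 CPM per kb). In CPM, Sdhc was highest with a mean of 502, beside 353 for Sdhd, 352 for Sdhb and 249 for Sdha. In complex V the levels of Atp5k (909 ± 76.1) and Atp5g3 (810 ± 82.4) led, followed by Atp5mpl (549 ± 112 CPM per kb).

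The median level of the members was 153 CPM per kb in complex I, 156 in complex II, 407 in complex III, 205 in complex IV and 239 in complex V. In CPM, without division by length, the medians for I to V were 226, 352, 534, 264 and 595. Complex III was thus highest per kb and complex V in CPM. These medians are of genes within the same 7 samples and were not compared by a test.

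**Figure D2:**
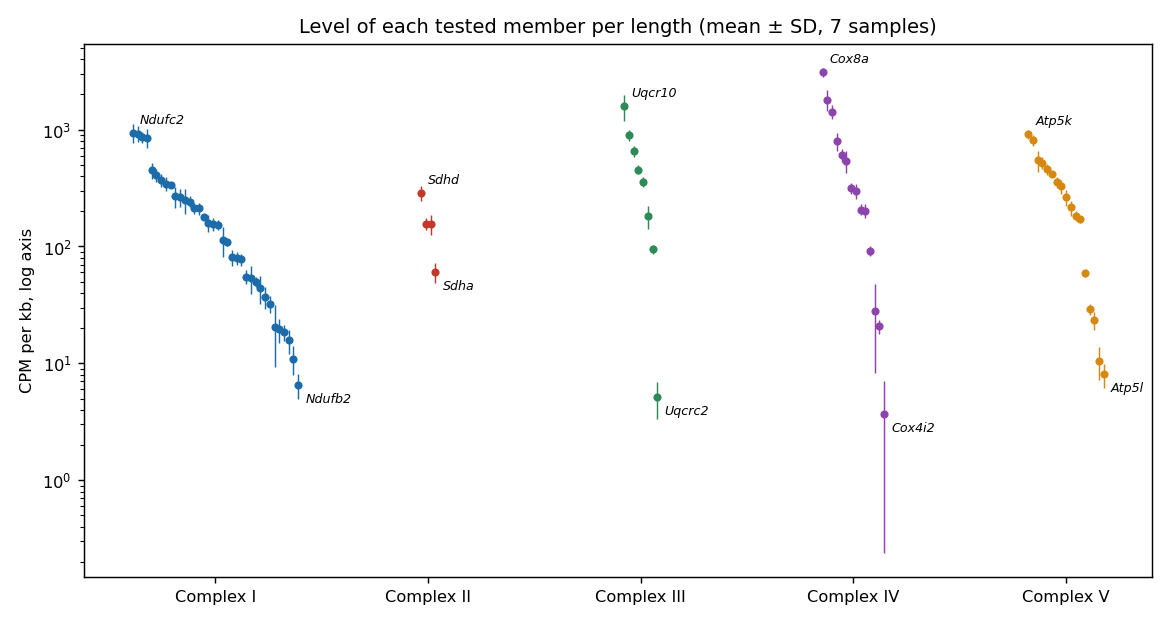
Level of each of the 79 tested members in CPM per kb (log axis) by complex, ordered from high to low within a complex. Points are means over 7 samples and bars are SDs. Cox8a stands highest at 3090 and Cox4i2 lowest at 3.68, with the highest and lowest member of each complex named.

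Several subunits of complex IV and V come as alternative isoforms with known tissue preferences, and the cells used them unequally. Cox4i1, the common form of subunit 4, was read at 346, 550, 444 and 456 CPM in WT replicates 1 to 4 and at 503, 531 and 422 CPM in the Smchd1-null samples. Cox4i2, the form linked to lung and to low oxygen, was read at 0.977, 4.66, 0.524 and 7.89 CPM in WT and at 1.88, 3.73 and 0.649 CPM in Smchd1-null samples. In every sample Cox4i1 was thus far above Cox4i2, and a Cox4i2 value of 0.524 CPM stands for fewer reads than the 3 that were taken as the floor.

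The heart and muscle forms Cox6a2 and Cox8b had means of 0.819 and 0.83 CPM and were not tested, and Cox7b2 and the complex I paralog Ndufa4l2 held 1 read each in all samples together. Cox8c held 0 counts in 7 samples. A count of 0 allows up to 3 reads, which is 0.399 to 1.13 CPM depending on the depth of the sample, and this limit covers counting error only. Cox7a1, a muscle form, was read at 8.13 to 16.2 CPM in 6 samples and at 37.7 CPM in WT replicate 4, against 601 to 957 CPM for Cox7a2.

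Cox6b2, known mainly from testis, was the exception among the tissue-restricted forms. Its level was 200, 239, 263 and 246 CPM in WT and 196, 240 and 220 CPM in Smchd1-null samples, against 902 to 1280 CPM for Cox6b1. No copy and no exon overlap was found for Cox6b2. The c ring of the ATP synthase is built from one protein with 3 source genes. Atp5g3 was read at 1555 to 2031 CPM, above Atp5g1 at 259 to 318 CPM and Atp5g2 at 39.1 to 55.5 CPM. With copies added, the means were 1766 CPM for Atp5g3, 648 for Atp5g2 and 578 for Atp5g1, so that the order of Atp5g1 and Atp5g2 depended on the copies.

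The members together took 3.22%, 3.74%, 3.43% and 4.09% of all assigned reads in WT replicates 1 to 4 and 3.41%, 3.45% and 3.52% in the Smchd1-null samples. The Smchd1-null shares lay inside the WT range. By complex, the summed level of complex I averaged 10278 ± 1331 CPM over the 4 WT samples (SD) against 9860 ± 146 CPM over the 3 Smchd1-null samples, and that of complex V was 11531 ± 1145 against 11218 ± 80.9 CPM. Complex III was at 4155 ± 633 and 4264 ± 159 CPM, and complex IV at 8684 ± 1268 and 8509 ± 223 CPM. Complex II was at 1532 ± 271 and 1353 ± 152 CPM. In all 5 complexes the group means differed by less than the SD of WT, and WT replicate 1 had the lowest sum of the members and WT replicate 4 the highest.

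**Figure D3:**
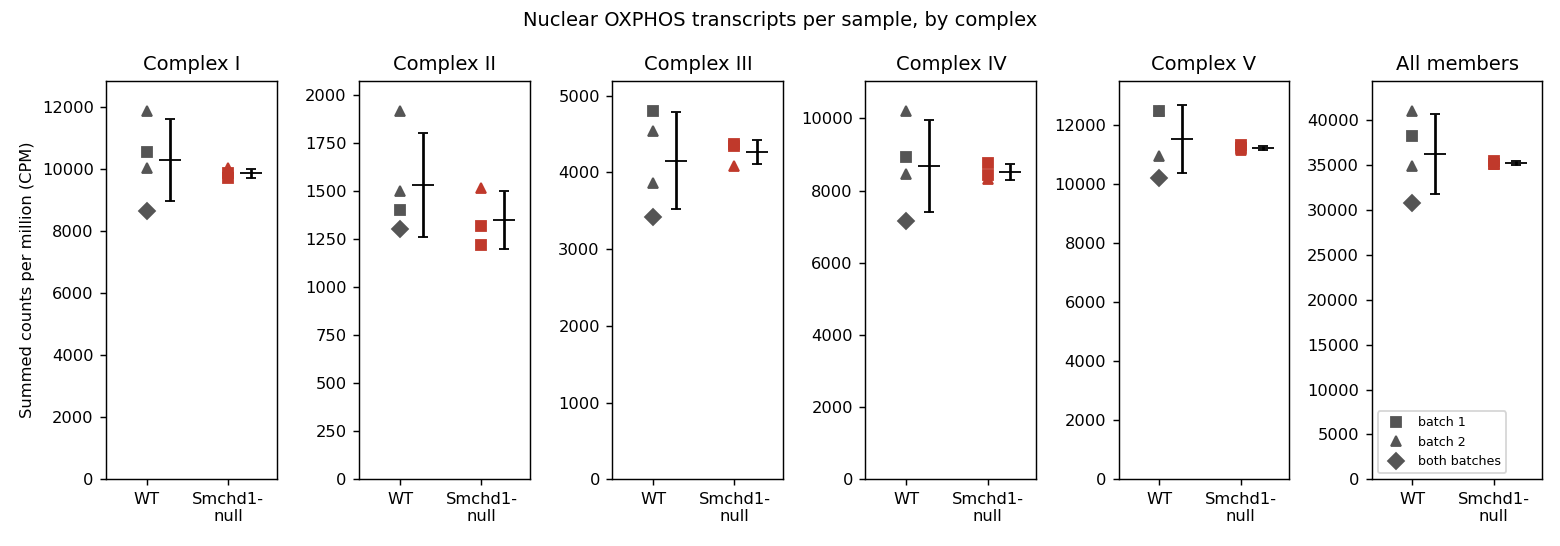
Summed CPM of the members of each complex and of all members (y axes from 0) in WT and Smchd1-null samples. Points are samples, with squares for batch 1, triangles for batch 2 and a diamond for the sample run in both. Lines are mean ± SD. The Smchd1-null samples lie within the WT range for the sum of all members, from 30713 to 41036 CPM.

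Few genes of any kind passed the test for genotype, and no member was among them. With voom and sample quality weights in limma, 0 of the 79 tested members were higher and 0 lower at an adjusted p under 0.25, where 0.474% and 0.609% of all 13305 genes were called. At such shares, a count of 0 among 79 does not set the members apart from other genes. At an unadjusted p under 0.05, 1 member was higher and 1 lower, against 7.11% and 6.74% of all genes. In edgeR, DESeq2 and voom without weights there were 0 and 0, where 675, 593 and 669 of all 13305 genes had that p. No member had groups that did not overlap, against 2.52% of all genes higher and 3.01% lower without overlap.

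The median log2 fold change of the members was 0.03, beside 0.005 for all genes, and 73 of the 79 lay between -0.3 and 0.3. For 67 members the 95% confidence interval lay within a 1.5-fold change either way and for 77 within a 2-fold change. The exceptions to the latter were Uqcrc2 and Cox4i2, which are among the least read members. Cox4i2 had the highest log2 fold change above 0, at 0.58 with an SE of 0.71, which was -0.72 in edgeR. By complex, the median log2 fold change in limma with sample weights was 0.04 for I, -0.17 for II, 0.04 for III, -0.02 for IV and 0.02 for V. The signs depended on the tool. In edgeR the medians for I to V were -0.07, -0.17, -0.05, -0.06 and -0.07. Every complex was also below 0 in DESeq2 and in voom without sample weights.

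The outcome depended on which samples were in the fit. Without WT replicate 2, the only WT sample wholly in batch 1, 8 members were higher and 5 lower at an adjusted p under 0.25 (limma), when 22.7% of all genes were called. Without Smchd1-null replicate 3, which leaves Smchd1-null samples of batch 1 only, 1 member was higher and 6 lower, when 23.5% of all genes were called. Uqcr10 was the member with the smallest adjusted p in both of these fits, and Uqcrc2, Sdha, Ndufa5, Ndufa10 and Ndufa12 were lower in both. The fits share most of their samples, so they are not independent. A fit on all 7 samples took the batch share as a covariate, 0.5 for WT replicate 1. There the log2 fold changes were -0.49 for Uqcrc2, -0.11 for Sdha, -0.08 for Ndufa5, -0.09 for Ndufa10 and -0.001 for Ndufa12. With its copy added and no batch term, Ndufa12 was at -0.02.

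Uqcr10 was the member higher in Smchd1-null samples at an unadjusted p under 0.05. It was read at 667, 1291, 696 and 828 CPM in WT and at 1131, 1060 and 823 CPM in Smchd1-null samples. The groups overlapped: WT replicate 2 was the highest of all 7, and WT replicate 4 was above Smchd1-null replicate 3. The log2 fold change was 0.41 with an SE of 0.17 and an adjusted p of 0.330 in limma. Within batch 1 the difference was -0.24 and within batch 2 it was 0.12 on the log2 scale, and with the batch as a covariate and WT replicate 1 left out the log2 fold change was -0.08.

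Uqcrc2 was the member lower at an unadjusted p under 0.05. It was read at 18.1, 12.7, 20.7 and 8.92 CPM in WT and at 12.8, 8.65 and 10.2 CPM in Smchd1-null samples. WT replicates 1 and 3 stood above the rest, and WT replicates 2 and 4 lay within the range of the Smchd1-null samples. The log2 fold change was -0.66 with an SE of 0.26 and an adjusted p of 0.322 in limma, and the differences within batches 1 and 2 were -0.26 and -0.41. It rests on few reads per sample, as stated with its exon overlap.

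In the limma fit with sample weights, complex II was the complex in which every member had a log2 fold change below 0. Sdha, the flavoprotein that oxidises succinate, was read at 269, 214, 251 and 345 CPM in WT and at 203, 212 and 252 CPM in Smchd1-null samples, with a log2 fold change of -0.28 with an SE of 0.13 and an adjusted p of 0.361 in limma. Smchd1-null replicate 3, of batch 2, was the highest of its group. The log2 fold changes of Sdhb, Sdhc and Sdhd were -0.16, -0.18 and -0.08, and none of the 4 passed the test. Within batch 1 and batch 2, the difference for Sdha was -0.04 and -0.22 on the log2 scale. All 4 members were also higher in batch 2, as given below. With batch as a covariate and WT replicate 1 left out, complex II did not stand apart. The median log2 fold changes of complexes I to V were then -0.10, -0.10, -0.10, -0.09 and -0.07.

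Among complex I members, the log2 fold changes with the smallest p were -0.28 for Ndufa10, -0.26 for Ndufa5, -0.32 for Ndufa12, 0.22 for Ndufb11 and 0.33 for Ndufa11, with adjusted p from 0.378 to 0.446 (limma). Ndufb11 is an X-linked accessory subunit. It was read at 235, 361, 283 and 322 CPM in WT and at 334, 337 and 319 CPM in Smchd1-null samples, and WT replicate 2 again exceeded every Smchd1-null sample. The other X-linked members, Ndufa1 and Cox7b, had log2 fold changes of -0.17 and -0.13.

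**Figure D4:**
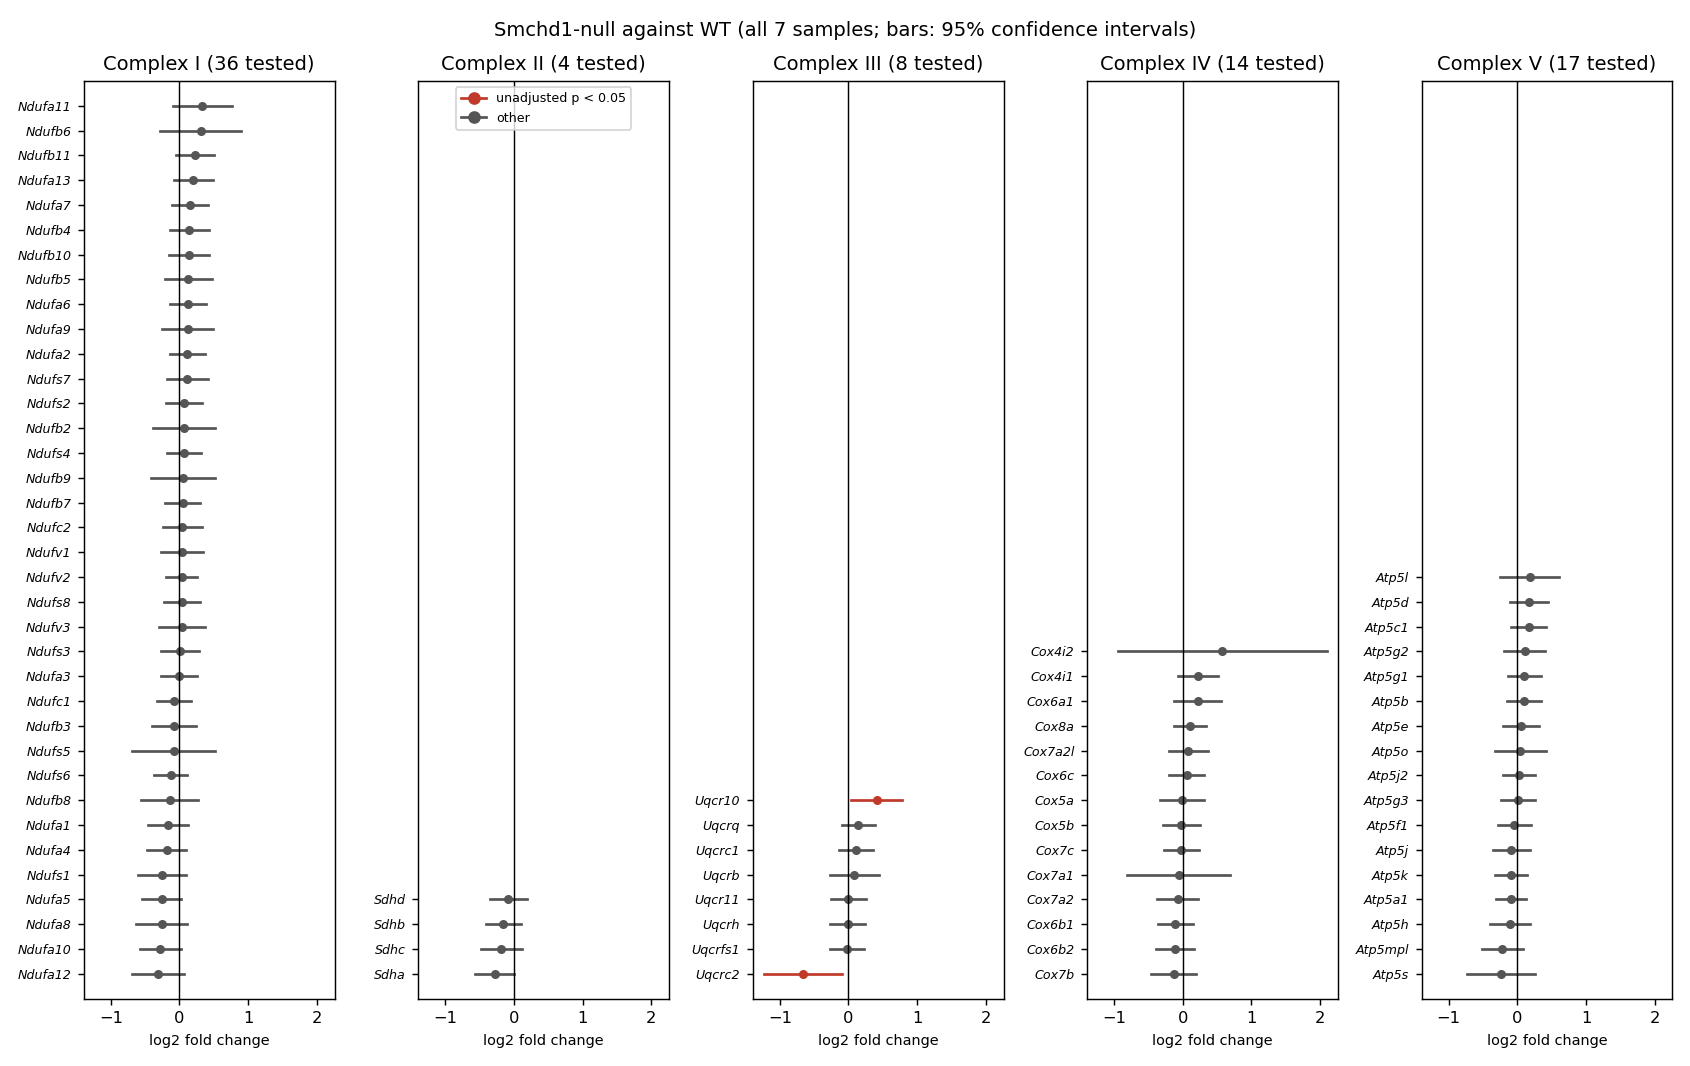
Log2 fold change of Smchd1-null over WT for each tested member by complex, from limma over all 7 samples. Bars are 95% confidence intervals, and red marks an unadjusted p under 0.05, which only Uqcr10 (0.41) and Uqcrc2 (-0.66) reached.

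More members differed between the sequencing batches than between genotypes. In a fit on 6 samples with genotype as a term and WT replicate 1 left out, 11 of the 79 members were higher and 4 lower in batch 2 at an adjusted p under 0.05 (limma), where 5.52% and 5.77% of 13107 genes were called. At an adjusted p under 0.25 the counts were 22 and 18, against 19.4% and 17.8% of genes, and 21 members were higher and 14 lower in batch 2 without overlap, against 15.3% and 17.3% of genes. The median log2 fold change of the members was -0.03, beside 0.02 for all genes, so the members moved in both directions.

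The count depended on the tool. At the same adjusted p, edgeR called 2 higher and 0 lower and DESeq2 3 and 1. It was 0 and 0 without WT replicate 2 and without Smchd1-null replicate 3, 2 and 0 without Smchd1-null replicate 1, 5 and 1 without Smchd1-null replicate 2, 7 and 1 without WT replicate 3, and 10 and 11 without WT replicate 4. With the trend of fold change on gene length removed, 17 were higher and 0 lower, and the median became 0.12. The share of all genes called moved as well. At an adjusted p under 0.25 it was 37.2% in the main fit, 25.4% in edgeR, 12.8% in DESeq2 and 30.5% with the trend removed. It was 2.35% without WT replicate 2, 0.0594% without Smchd1-null replicate 3 and 26.3% to 33.1% without each of the other samples.

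In the fit on all 6 samples, 7 of the 11 members higher in batch 2 belonged to complex I, which held 36 of the 79 tested members. Ndufa8, a twin-cysteine accessory subunit, was read at 184 CPM in WT replicate 2 and at 160 and 177 CPM in Smchd1-null replicates 1 and 2, all of batch 1. In batch 2 it was read at 248 and 285 CPM in WT replicates 3 and 4 and at 270 CPM in Smchd1-null replicate 3. The batches did not overlap, and WT replicate 1, run in both, was at 182 CPM, close to batch 1. The log2 fold change was 0.63 with an SE of 0.10, and the adjusted p was 0.00466 in limma and 0.0393 in edgeR.

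Ndufa12 had the smallest adjusted p. It was read at 133, 135 and 138 CPM in batch 1 and at 206, 265 and 209 CPM in batch 2, with WT replicate 1 between them at 162 CPM. The log2 fold change of the gene was 0.68 with an SE of 0.10 and an adjusted p of 0.00411 in limma. With the reads of its copy Gm15920 added, the log2 fold change was 0.21 and the adjusted p 0.134, so the call did not hold for gene and copy together.

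Of complex I, Ndufa5, Ndufb8, Ndufa4, Ndufa10 and Ndufs1 were also higher in batch 2, with log2 fold changes from 0.32 for Ndufa4 to 0.47 for Ndufb8. Ndufa4 was read at 1081 to 1196 CPM in batch 1 and at 1350 to 1593 CPM in batch 2, the most reads of any called member. Ndufs1, the large iron-sulphur subunit of the electron input arm, had a log2 fold change of 0.43. Ndufs7, another core iron-sulphur subunit, went the other way and was read at 350, 296 and 290 CPM in batch 1 and at 233, 280 and 229 CPM in batch 2, with a log2 fold change of -0.40 with an SE of 0.09 and an adjusted p of 0.0217 in limma.

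Uqcr10 fell most among the called members, with a log2 fold change of -0.56 with an SE of 0.10, and the adjusted p was 0.00856 in limma and 0.0548 in edgeR. The 3 samples of batch 1 were the 3 highest of the 7. WT replicate 1, at 667 CPM, was below every sample of either batch. Within complex IV, Cox7b (0.41) and Cox7a2 (0.35) were higher in batch 2 and Cox7a2l (-0.34) lower, as log2 fold changes. Within complex V, Atp5s (0.73) and Atp5h (0.33) were higher and Atp5d (-0.31), the delta subunit, lower.

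All 4 members of complex II were higher in batch 2 without overlap, against 15.3% of all genes. Their log2 fold changes were 0.34 for Sdha, 0.29 for Sdhc, 0.22 for Sdhb and 0.21 for Sdhd. Each passed an adjusted p under 0.25 (limma), as did 19.4% of all genes in that direction, and none passed 0.05. The summed level of complex II was 1314 ± 91.7 CPM in batch 1 and 1647 ± 238 CPM in batch 2 (SD, n = 3 each).

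WT replicate 1 was not used in this fit. Of the 15 called members, its level lay between the batch means for 6, at or past the batch 2 mean for 4 and at or past the batch 1 mean for 5. Of all 1479 called genes it lay between for 843, past batch 2 for 571 and past batch 1 for 65.

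**Figure D5:**
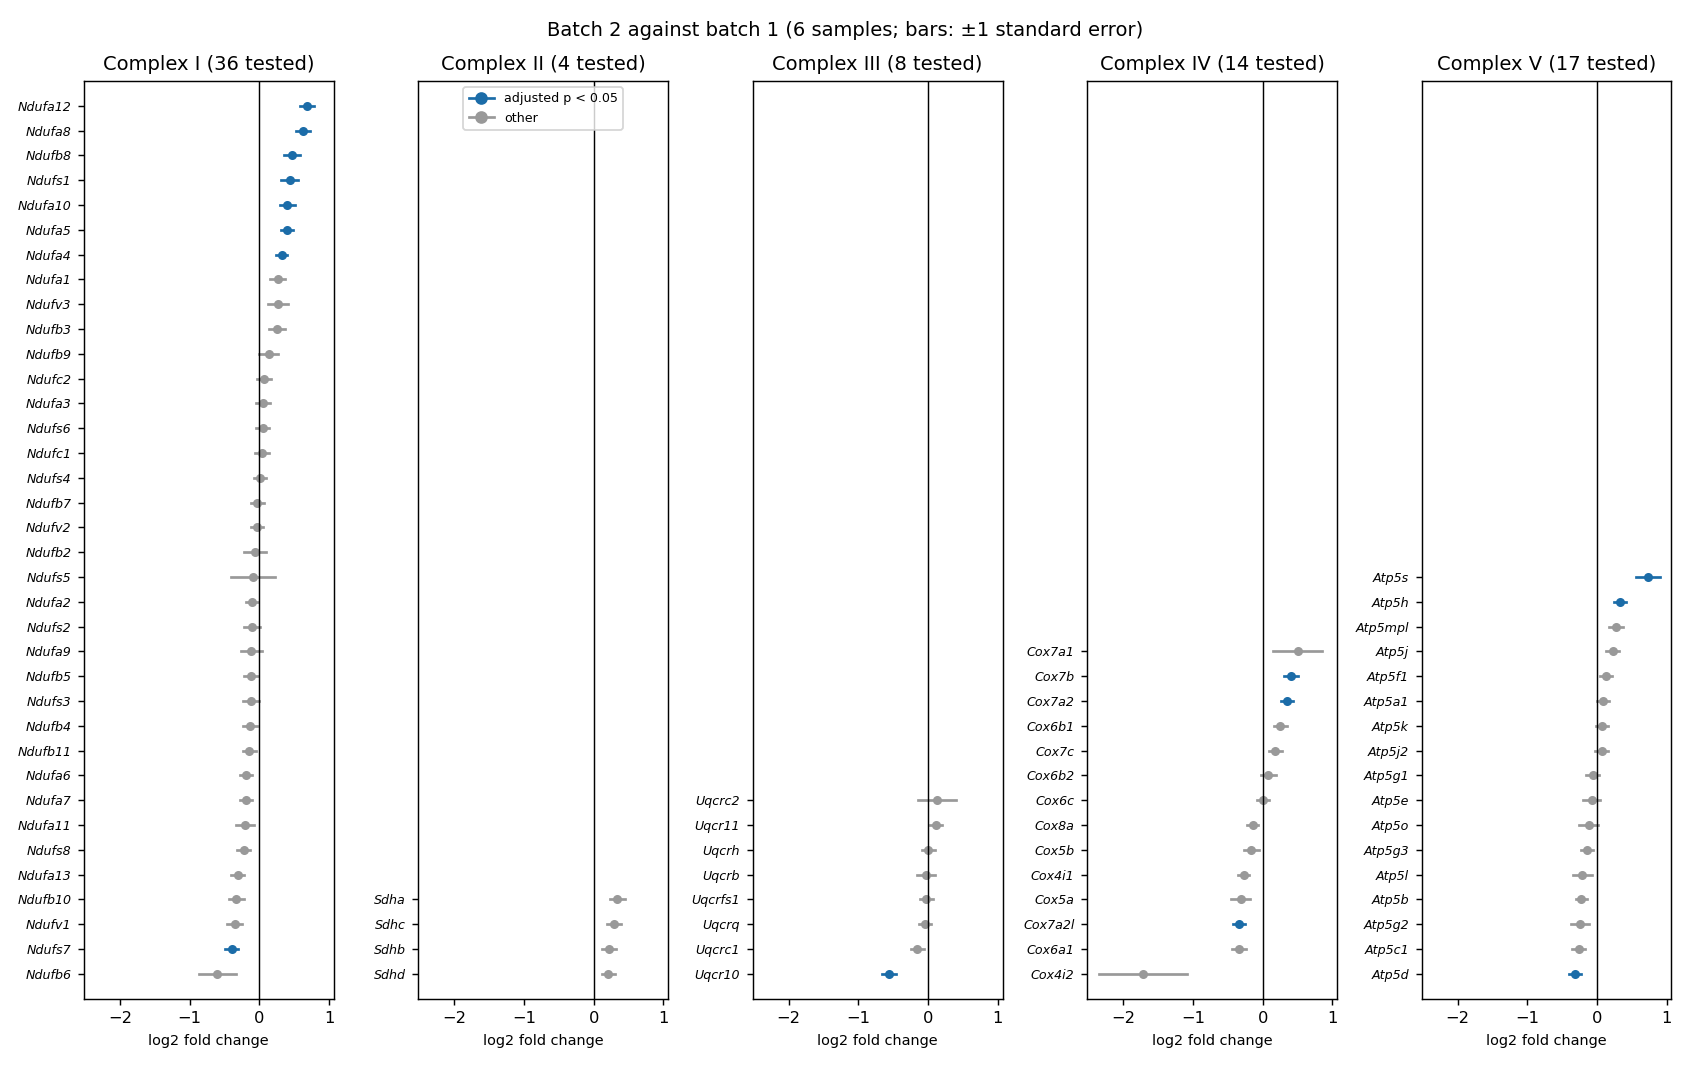
Log2 fold change of batch 2 over batch 1 for each tested member by complex, from limma over 6 samples. Bars are ±1 SE and blue marks an adjusted p under 0.05. All 4 members of complex II lie above 0, and Cox4i2 (-1.72), with few reads, lies farthest below 0.

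Gene length went with both contrasts over all genes, whereas the correlation among the members was near 0. As 72 of the 79 members were shorter than the median gene, this does not show that they are free of the trend. Spearman's rho between length and the genotype log2 fold change was -0.38 over the 13305 tested genes and -0.04 over the 79 members, and between length and the batch log2 fold change it was 0.35 and 0.01. These are descriptions across genes that share libraries. With the length trend removed, the median genotype log2 fold change of the members went from 0.03 to -0.10. At an unadjusted p under 0.05 (limma), 7 members were then lower, against 647 of all 13305 genes. The median batch log2 fold change of the members went from -0.03 to 0.12.

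The mitochondrially encoded partners of these subunits were read at 2.99%, 2.46%, 3.17% and 3.82% of reads in WT and at 2.37%, 2.47% and 3.04% in Smchd1-null samples. The ratio of their reads to those of the nuclear members was 0.659, 0.697 and 0.717 in batch 1 and 0.923, 0.934 and 0.864 in batch 2, with 0.931 in WT replicate 1. The batches did not overlap in this ratio, while the genotypes did. Of the 13 mitochondrial genes, 8 were higher in batch 2 at an adjusted p under 0.05 (limma) and 0 lower, against 5.52% and 5.77% of all genes. For genotype, 12 of the 13 had a log2 fold change below 0. Of these, 4 had an unadjusted p under 0.05 (limma), against 6.74% of all genes lower. At an adjusted p under 0.25 there were 0, against 0.609% of all genes lower.

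Other genes around the pathway were read from lists of known function. Of 41 tested assembly factors, in Smchd1-null samples 3 were above and 3 below WT at an unadjusted p under 0.05 (limma), where 7.11% and 6.74% of all genes were, and 0 passed an adjusted p under 0.25. Among these was Uqcc2, which serves complex III assembly, with a log2 fold change of 0.34 and no overlap. Of 7 electron carriers and exchangers, among them cytochrome c (Cycs), 0 reached an unadjusted p under 0.05 for genotype. Of 13 genes of the tricarboxylic acid cycle, 0 were higher and 2 lower at that p, against 7.11% and 6.74% of all genes. These were citrate synthase (Cs, -0.39) and Suclg2 (-0.31, log2 fold changes). Their batch log2 fold changes went the other way, at 0.44 for Cs and 0.23 for Suclg2. The part of batch in these genotype values was not tested.

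Of 11 tested regulators of mitochondrial gene expression, 2 were lower at an unadjusted p under 0.05 (limma), against 6.74% of all genes. These were the coactivator Ppargc1a and the receptor Esrra, with log2 fold changes of -0.74 and -0.61 and batch log2 fold changes of 0.45 and 0.55. For Ppargc1a the groups did not overlap, and the adjusted p was 0.267 (limma). Nrf1 (0.07), Gabpa (-0.10) and Tfam (-0.01), known activators of nuclear and mitochondrial respiratory genes, had log2 fold changes near 0.

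Of 16 genes of glycolysis, 6 were higher and 1 lower at an unadjusted p under 0.05, against 7.11% and 6.74% of all genes, and 1 was called in each direction at an adjusted p under 0.25. Batch moved with these values, as 2 of the 3 Smchd1-null samples were of batch 1. The batch log2 fold changes of the 6 higher genes were all below 0, at -0.74 for Pfkl, -0.53 for Ldha, -0.52 for Eno1, -0.41 for Tpi1, -0.22 for Pfkp and -0.08 for Pkm, of which only that of Ldha passed an adjusted p under 0.05. The part of batch in these genotype values was not tested. Pfkp, a phosphofructokinase, rose in Smchd1-null samples with a log2 fold change of 0.94 with an SE of 0.20 and an adjusted p of 0.140 in limma and no overlap. Aldoc, an aldolase known as an astrocyte marker, fell by 0.81 on the log2 scale with an SE of 0.21 and an adjusted p of 0.233 in limma, with overlap between the groups and a batch log2 fold change of 0.76. The median log2 fold change was 0.32 for glycolysis, beside 0.03 for the nuclear members of oxidative phosphorylation, 0.20 for 91 cytosolic ribosomal protein genes and 0.09 for 75 mitochondrial ribosomal protein genes. These medians were not compared by a test.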

How the data were processed

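Gene counts of direct-cDNA nanopore libraries from 7 samples were used as deposited by the authors. Per the labels and the study's methods, reads were aligned to mm10 with minimap2 (version 2.17 in the submitters' processing notes), primary alignments were counted per gene with featureCounts in long-read mode on Gencode M23, and the runs of WT replicate 1 were summed. The files also give a deposited gene length in bases. Identifiers were matched, ignoring versions, to Gencode M21 (GRCm38), where 55154 of 55335 had an entry.

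Counts were filtered with filterByExpr, scaled by TMM and fitted with limma 3.58.1 (voom with sample quality weights) in R 4.3.3, genotype alone over 7 samples, and genotype plus batch over 6. P-values were adjusted over all genes by Benjamini-Hochberg. Alternatives used edgeR 4.0.16, DESeq2 1.42.0, other scaling and filters, batch terms, a replicate block, removal of the length trend (lowess, span 0.3), thinning and leaving out each sample. Intervals are 95% confidence intervals from limma. Pseudogene copies were found with BLASTN 2.17.0 against annotated transcripts, and their addition to the members was chosen after seeing the data. The fits were tested on simulated data.

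The members and lists were chosen with earlier results of these data known. Named were, per complex, the 3 members of highest CPM per kb, the 8 members of smallest genotype p, the 4 largest rises and falls, the 10 members of smallest batch p among those called, and tissue isoforms with their partners. Other names were chosen after their values were seen. Totals of 2741820 to 7736498 counts per sample set the precision, and intervals cover the spread between samples.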

Additional observations from a re-analysis of the deposited data

Results flagged for a closer look

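Of 45 sets of 4 WT values compared, 1 held a sample far from the others by Dixon's test at 95%. Ndufb6, an accessory subunit of complex I, had a log2 CPM of 3.5 in WT replicate 2, against 2.57 to 2.68 in the other 3 WT samples. In CPM the WT values were 5.62, 10.9, 5.51 and 6, and the Smchd1-null values were 7.51, 8.78 and 6.28. Chance alone flags about 1 in 20 groups, and 39% of the exon bases of Ndufb6 are shared with another gene. The cause was not tested.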

How the results depend on the processing

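With edgeR, DESeq2, voom without sample weights, the filter keeping all genes with a count or the batch share as a covariate, 0 members were above and 0 below WT at an unadjusted p under 0.05. In the same order, 675, 593 and 669 of 13305, 1914 of 36857 and 1061 of 13305 genes had that p, both directions together. With batch as a covariate and WT replicate 1 left out, 0 were higher, where 865 of 13107 genes had that p in either direction. Lower members numbered 2 with RLE factors, 4 with library size alone, 2 with at least 10 counts in every sample and 3 after thinning, which left 1 below WT without overlap. In these fits 1840 of 13305, 1855 of 13305, 1750 of 11313 and 1640 of 12062 genes had that p, both directions together. With the length trend removed, 0 were higher and 7 lower (1 without overlap), against 625 higher and 647 lower of 13305 genes. The median log2 fold change of the members was then -0.10, and with a batch share covariate added the counts were 0 and 0, where 1100 of 13305 genes had that p. Leaving out each sample in turn gave 0 to 6 higher and 0 to 6 lower at that p, 0 to 8 higher and 0 to 6 lower at an adjusted p under 0.25, and 0 to 2 above and 0 to 7 below WT without overlap, while the median lay between -0.09 and 0.05. Over the same fits 441 to 2889 genes had that unadjusted p. At an adjusted p under 0.25, 0.00733% to 23.5% of all genes were called.

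Replicate numbers are shared between genotypes. The correlation of deviations from the group means was -0.0378, 0.363 and 0.094 for numbers 1 to 3, and from -0.537 to 0.301 for pairs of unlike number. The labels do not say whether samples of the same number share an origin, and so few correlations cannot decide it. With a replicate block, 0 members were higher and 1 lower at an unadjusted p under 0.05, and 0 and 2 with the length trend removed as well. Of all 13305 genes, 883 and 991 had that p in these fits, both directions together.

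For batch at an adjusted p under 0.05, 2 members were higher and 0 lower with edgeR and with voom without weights, and 3 and 1 with DESeq2. With all genes that had a count, 14 were higher and 9 lower, with all 7 samples 7 and 6, and with the length trend removed 17 were higher and 0 lower with a median of 0.12. Leaving out each sample in turn gave 0 to 10 higher and 0 to 11 lower. The shares of all genes in these fits are given at an adjusted p under 0.25, both directions together. They were 25.4% with edgeR, 26% with voom without weights, 12.8% with DESeq2 and 8.78% with all genes that had a count. With all 7 samples the share was 38.7%, with the length trend removed 30.5%, and with each sample left out 0.0594% to 33.1%. All 180 alternative values of the 10 named members kept their direction, and 66 of them no longer passed.

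Some genotype log2 fold changes of named members turned sign. With batch as a covariate and WT replicate 1 left out, they were -0.078 for Uqcr10, -0.022 for Ndufb11, -0.060 for Ndufa11, -0.79 for Cox4i2 and -0.22 for Ndufb6. With the length trend removed and a batch share covariate, they were -0.089 for Uqcr10, -0.013 for Ndufb11, -0.67 for Cox4i2 and -0.26 for Ndufb6, and with the trend removed and a replicate block -0.023 for Uqcr10, -0.24 for Cox4i2 and -0.23 for Ndufb6. Ndufb6 was at -0.15 with the batch share, -0.088 with the block and -0.013 with the length trend removed. Cox4i2 was at -0.72 in edgeR, -0.74 in DESeq2, -0.37 without weights, -0.034 with all genes that had a count, -0.58 with the batch share and -0.12 with the block, and at -0.60 to 0.95 when samples were left out in turn. The cause was not tested.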
